A study of Mus musculus with 14 samples.

Results

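Natural killer (NK) cells sorted from 4 mammary tumours were compared with NK cells sorted from 4 spleens of tumour-bearing mice, gene by gene. These are 8 of the 14 samples of the series, taken by their labels. The comparison, the genes named and the gene lists were chosen with earlier results of these data known. The other samples are 3 libraries of NK cells from spleens of healthy mice and 3 libraries of a fibroblast subset. The fibroblast libraries were not used. The healthy spleen libraries were outside the contrast, but entered the choice of genes tested, the scaling and the estimate of the spread. Without them 8007 genes were tested, in place of 8471. All mice were 8-week-old BALB/c females. Both compared groups carried the 4T1-GFP line, a mouse mammary carcinoma marked with green fluorescent protein, after injection of 100000 cells into the lower left mammary fat pad. No group carried a gene deletion or a drug treatment, per the labels. Tumours were kept for 20 min at 37 °C with collagenase A and DNase, and spleens were instead crushed and treated with a red cell lysis buffer for 5 min. The tissue and this handling cannot be told apart in any difference below. NK cells of both tissues were sorted as positive for CD45 and for NKp46, the product of Ncr1, and as negative for GFP, EPCAM, CD3, CD31 and CD14. The series describes its NK libraries as independent replicates. Where these share an animal or pool is not given in the sources used here, so p-values measure the spread between these samples.

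NK cells are innate lymphocytes that kill stressed or transformed cells without prior priming. Activating receptors pass their signal through adaptors with tyrosine motifs to kinases and on to NF-kappaB, AP-1 and NFAT factors, and inhibitory receptors that recognise MHC class I hold this relay in check. Mature splenic NK cells circulate and use sphingosine-1-phosphate receptors to leave tissues. In tumours, TGF-beta, low oxygen and scarce nutrients are known to change NK cells, and tissue-retention markers such as CD69 often mark those that stay.

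Total counts over the listed genes ran from 712439 to 1838769 in the tumour libraries and from 1287123 to 1966963 in the spleen libraries. Levels are given as CPM, the count scaled to a common library size after TMM normalisation, and a count of 0 allows up to 1.54 to 4.33 CPM, for counting error only. Counts came from transcript 3' ends and were not divided by length. The spleen libraries fell into pairs. Across genes, log2 CPM of spleen replicates 1 and 2 correlated with r = 0.975 and those of replicates 3 and 4 with r = 0.977, whereas r across the pairs lay between 0.941 and 0.961. The labels give no batch for this split, and genes are not independent replicates. Each result was therefore also computed against replicates 1 and 2 alone and against replicates 3 and 4 alone.

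The sorted identity was checked against marker lists. The NK list (11 of 12 markers with counts, 10 of them tested, 5 called lower and none higher) held 2.14 ± 0.205% of the counts of tumour libraries and 3.06 ± 0.125% of spleen libraries (mean ± SD, n = 4 each; exact two-sided permutation p = 0.0286, the smallest that 4 against 4 libraries allow, and 0.0449 adjusted over 11 lists). Most of the list's counts in both groups were of Gzma, a granzyme that was itself not called. Ncr1 had 895, 825, 909 and 713 CPM in tumour replicates 1 to 4 and 1668, 1492, 1320.4 and 924 CPM in spleen replicates 1 to 4. Every library thus held the sorted marker, and the ranges did not overlap. Of 8 tested markers of type 1 innate lymphoid cells, relatives of NK cells that live in tissues, 6 were called higher and none lower, and the list rose from 0.109% to 0.177% of counts (range 0.0937 to 0.134% against 0.159 to 0.202%). Tmem176b, one of them, had 271, 228, 216 and 321 CPM in tumour replicates 1 to 4 and 60.6, 32.2, 28.7 and 53.9 CPM in spleen replicates 1 to 4. Itga1, the collagen receptor chain that defines these cells, was counted at 3.59–8.65 CPM in tumour libraries and 0–1.52 CPM in spleens, too low to be tested. In bulk libraries a changed mixture of cells and a changed RNA level per cell cannot be told apart, and this holds for every gene below.

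Markers of several other cell types were counted, and some were higher in all tumour libraries. The fibroblast list (5 of 12 markers with counts) held 0.0707 to 0.0864% of tumour counts and 0.0395 to 0.0520% of spleen counts (exact two-sided permutation p = 0.0286, 0.0449 adjusted over 11 lists). Nearly all of it was Thy1, a surface protein that lymphocytes also carry, which had 757, 714, 779 and 918 CPM in tumour replicates 1 to 4 and 457, 352, 399 and 527 CPM in spleen replicates 1 to 4 (log2 fold change 0.87, SE 0.153, adjusted p 0.000231). Of its collagen genes, Col1a2 had 12.2, 2.88, 10.8 and 12.3 CPM in tumour replicates 1 to 4 and 2.27, 7.77, 3.07 and 4.32 CPM in spleen replicates 1 to 4, and its call as higher was lost in 12 alternatives, 6 of them fits without 1 library (spleen replicate 1, 3 or 4, or tumour replicate 1, 3 or 4). Pecam1, the only endothelial marker with counts and one that leukocytes also carry, had 188, 138, 143 and 200.4 CPM in tumour replicates 1 to 4 and 77.3, 74.4, 93.7 and 91.3 CPM in spleen replicates 1 to 4 (log2 fold change 1.00, SE 0.172, adjusted p 0.00019). It encodes CD31, for which the cells of both tissues were sorted as negative, yet its RNA was counted in all 8 libraries. The macrophage and monocyte list (10 of 15 markers with counts) ran from 0.0552 to 0.120% in tumours and from 0.0178 to 0.0746% in spleens, but most of it was Ccr2, which NK cells also express. Tumour replicate 3 stood apart in its defining members. Lyz2 had 4.08, 7.21, 40.1 and 5.67 CPM in tumour replicates 1 to 4, Apoe 10.6, 10.1, 105 and 13.2 CPM and C1qa 4.89, 1.44, 23.3 and 0.945 CPM, and Csf1r was at 0 in tumour replicates 1 and 4 and in all 4 spleens. S100a9, a neutrophil calprotectin chain, was highest in tumour replicate 2, at 111 CPM against 0–8.19 CPM in spleens. The neutrophil list did not differ as a whole, at 0.00945% of tumour and 0.00998% of spleen counts (exact two-sided permutation p = 0.914). Of its 3 tested members, 2 were called higher and 1, G0s2, lower. Of the 3 T cell markers with counts, Cd4 lay at 0.945–2.88 CPM in tumours and 0.719–1.52 CPM in spleens, Cd3d was called lower (log2 fold change −0.65), but not against spleen replicates 1 and 2 alone or in 5 of the 8 fits without 1 library (tumour replicate 1, 2 or 4, or spleen replicate 3 or 4), and Cd3g was not called. Of the 11 markers of the carcinoma list only 2 had counts, 1 of them tested, and the keratins and claudins were among the 9 without. Epcam was at 1.20–7.34 CPM in tumours and 0–1.02 CPM in spleens. Cdh1, the epithelial cadherin, was called higher, at 26.3–47.3 against 0–2.27 CPM. The part of these cells in the results was not tested, other than by leaving out replicate 3. Counts of called members without it are given for the immediate early, NF-kappaB, interferon and MHC class I lists only.

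Of 8471 genes tested, 15.8% were called higher and 13.2% lower in tumour NK at an adjusted p under 0.05 (edgeR's quasi-likelihood test, Benjamini-Hochberg over all genes tested). These shares are the background for every count of list members. Against spleen replicates 1 and 2 alone 17.4% were called, 6.34% as lower, and against replicates 3 and 4 alone 17.1% and 15.5% (32.6% in all). With a fold change of at least 2 as well, 7.98% were higher and 4.06% lower, and the libraries of the 2 groups did not overlap in 29.7% of genes. Calls that also held in the same direction against each spleen pair alone were fewer, at 9.29% of genes higher and 5.24% lower. Higher genes made up 54.55% of the calls under TMM scaling, 41.63% under upper-quartile scaling and 45.69% with an offset for GC content and length. Over all genes, the median log2 fold change moved with these alternatives from 0.00 to −0.10 and −0.09, so small shifts of a list are read against that. The plot of fold change against level shows both the large folds of low genes and the smaller shifts of the most counted ones.

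**Figure D1:**
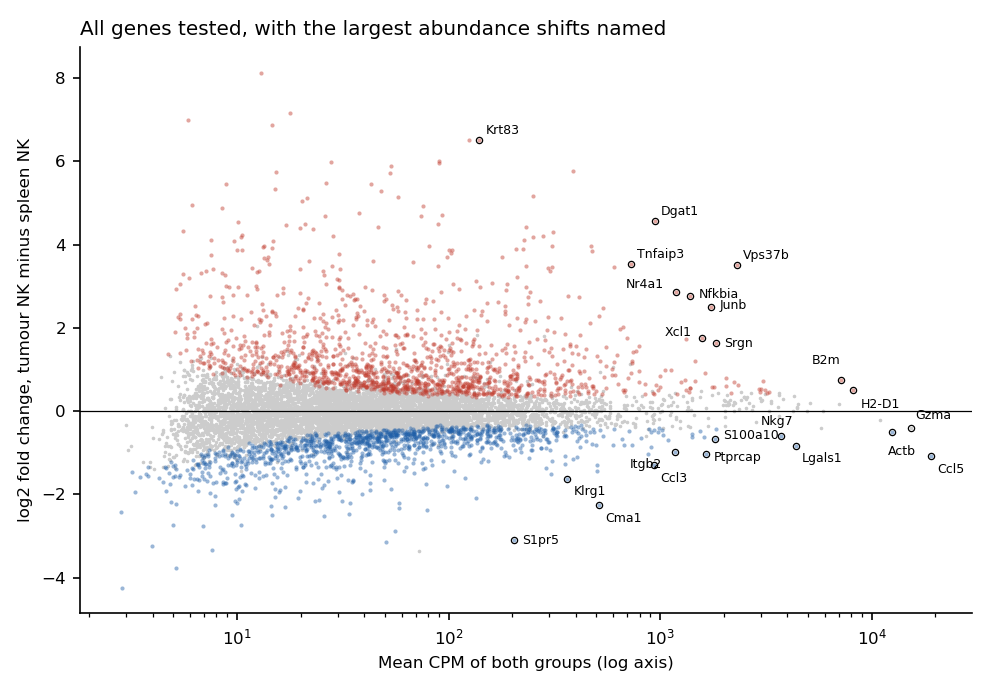
Each point is 1 of 8471 genes, with the mean CPM of both groups on a log axis and the log2 fold change of tumour over tumour-bearing spleen NK cells on the vertical axis. Red points were called higher, blue points lower and grey points neither. Named genes include the 16 largest shifts in mean CPM among called genes: Ccl5 lies at the right end below 0, Vps37b and Dgat1 lie far above 0, and Gzma, named for reference, was not called.

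Genes of the second kind were drawn out by a rule on size, level and stability: a call with a log2 fold change of 1 to 3 in size, a mean of at least 50 CPM in the lower group, libraries that do not overlap, and the same call against each spleen pair. The rule kept 136 genes higher and 31 lower in tumour NK, of which 61 and 8 belong to one of the lists below. Since the rule uses separation, the lack of overlap in these genes is how they were chosen. The 12 of each direction with the smallest p are described here, and the plot of their levels shows every library.

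**Figure D2:**
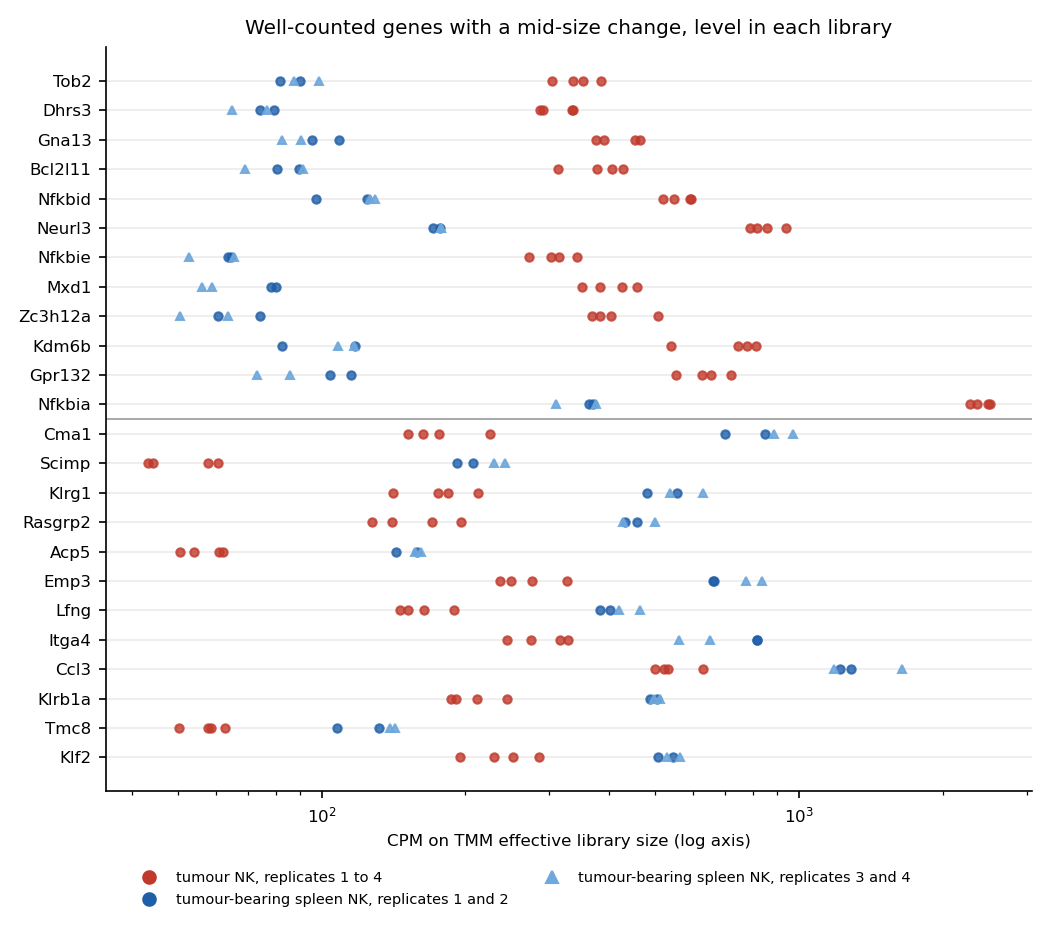
Each row is a gene and each point 1 library, at its CPM on a log axis. Red circles are the 4 tumour NK libraries, dark blue circles spleen replicates 1 and 2, and light blue triangles spleen replicates 3 and 4. The upper 12 genes were higher and the lower 12 lower in tumour NK, and for Neurl3 the 4 spleen libraries lie between 171 and 178 CPM.

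Among the higher genes, 3 encode inhibitors of the NF-kappaB family. Nfkbia, the classical inhibitor that is itself switched on by NF-kappaB, had 2513, 2488, 2283 and 2366 CPM in tumour replicates 1 to 4 and 369.9, 364, 310.1 and 376 CPM in spleen replicates 1 to 4 (log2 fold change 2.77, SE 0.136, adjusted p 2.08e-11). Nfkbie had 315, 343, 303 and 271 CPM in tumour replicates 1 to 4 and 63.7, 64.4, 52.7 and 65.4 CPM in spleen replicates 1 to 4 (log2 fold change 2.32, SE 0.132, adjusted p 1.35e-10). Nfkbid, an atypical nuclear member, had 520.1, 589.8, 546 and 593 CPM in tumour replicates 1 to 4 and 124, 97.1, 126 and 129 CPM in spleen replicates 1 to 4 (log2 fold change 2.24, SE 0.13, adjusted p 1.66e-10). For each of them the replicates of a group lay close together and the lowest tumour library was several times the highest spleen library. Zc3h12a, an endonuclease that degrades cytokine mRNAs, rose from 50.3–74.3 to 368–506 CPM, and Tob2, which recruits the mRNA deadenylation machinery, from 81.9–98.5 to 303–385 CPM.

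The remaining higher genes cover several functions. Neurl3, a ubiquitin ligase, had 815, 858, 788 and 942 CPM in tumour replicates 1 to 4 and 171, 177, 178 and 178 CPM in spleen replicates 1 to 4 (log2 fold change 2.27, SE 0.123, adjusted p 6.47e-11). Kdm6b, a histone demethylase that removes a repressive mark, rose from 82.6–117 to 538–812 CPM, and Mxd1, a Max partner that opposes Myc, from 56.1–80.3 to 350.4–459 CPM. Bcl2l11, the pro-apoptotic protein Bim, rose from 69.1–91.3 to 312–427 CPM. G-protein signalling was represented by Gpr132, a receptor for lipids and acid, at 638 ± 69.3 against 94.4 ± 18.7 CPM, and by Gna13, a G-protein alpha chain, at 421 ± 44.6 against 94.3 ± 11.1 CPM. Dhrs3, which reduces retinaldehyde, was at 312 ± 26.9 against 73.9 ± 6.45 CPM (mean ± SD, n = 4 each, as for every such pair below).

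The lower genes were led by Cma1, a chymase best known from mast cells, with 152, 163, 176 and 225 CPM in tumour replicates 1 to 4 and 700.3, 850.3, 973 and 888 CPM in spleen replicates 1 to 4 (log2 fold change −2.25, SE 0.162, adjusted p 3.44e-09). Kit, the stem cell factor receptor and another gene of the mast cell list, went the other way, at 103–138 against 25.5–39.4 CPM (log2 fold change 1.87). Scimp, an adaptor of immune synapses, went from 192–243 in spleens to 43.3–60.5 CPM in tumours. Klrg1, an inhibitory receptor for cadherins carried by mature NK cells, had 175, 141, 184 and 213 CPM in tumour replicates 1 to 4 and 481, 554, 631 and 537 CPM in spleen replicates 1 to 4 (log2 fold change −1.62, SE 0.143, adjusted p 5.38e-08). Klrb1a, a lectin-like receptor, was almost level over the spleens at 487, 503, 512 and 497 CPM and lay at 191, 212, 187 and 245 CPM in the tumours (log2 fold change −1.26, SE 0.125, adjusted p 2.35e-07).

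Other lower genes include some of adhesion and trafficking. Itga4, the integrin alpha chain that binds vascular adhesion molecules, had 275, 327, 316 and 244 CPM in tumour replicates 1 to 4 and 816, 816, 653 and 559.5 CPM in spleen replicates 1 to 4 (log2 fold change −1.29, SE 0.153, adjusted p 2.54e-06). Rasgrp2, which switches on Rap and thereby integrins, was at 159 ± 30.8 against 454 ± 32.4 CPM, and Klf2, the factor that drives egress receptors, at 240.2 ± 38.0 against 536 ± 24.6 CPM. Ccl3, a chemokine for macrophages and dendritic cells, was at 545 ± 58.0 against 1334 ± 214 CPM, and Lfng, a glycosyltransferase that modifies Notch, at 163 ± 19.2 against 417 ± 35.1 CPM. Acp5, Emp3 and Tmc8 fell by 1.45, 1.43 and 1.19 on the log2 scale. Acp5 is an acid phosphatase.

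Among called genes, the 8 largest gains and 8 largest losses of mean CPM were also described. Ccl5, with the largest of these differences, had 11434, 9954, 14049 and 13744 CPM in tumour replicates 1 to 4 and 24713, 21861, 27331 and 30332 CPM in spleen replicates 1 to 4 (log2 fold change −1.08, SE 0.182, adjusted p 0.000141). It is a chemokine that attracts T cells and monocytes, and its lowest spleen library lay well above its highest tumour library. Nkg7, a granule membrane protein, was at 2988 ± 442 against 4502 ± 413 CPM, Lgals1, a galectin, at 3161 ± 526 against 5612 ± 451 CPM, and Ptprcap, a partner of CD45, at 1078 ± 134 against 2210.1 ± 346 CPM. S100a10, Itgb2 and Actb were lower as well, by 0.66, 0.97 and 0.51 on the log2 scale. Actb and Nkg7 lost their calls against spleen replicates 1 and 2 alone, and Actb also in 5 of the 8 fits that left out 1 library (tumour replicate 1, 2 or 4, or spleen replicate 3 or 4).

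The gains were led by Vps37b, a subunit of the ESCRT-I sorting complex, with 3574, 4512, 4707 and 4100.4 CPM in tumour replicates 1 to 4 and 363, 364, 388 and 378 CPM in spleen replicates 1 to 4 (log2 fold change 3.499, SE 0.154, adjusted p 4.89e-12). Dgat1, which makes the last step of triglyceride synthesis, had 1539, 1880.4, 1995 and 1838 CPM in tumour replicates 1 to 4 and 89.4, 94.4, 65.5 and 58.3 CPM in spleen replicates 1 to 4 (log2 fold change 4.56, SE 0.182, adjusted p 1.66e-12). The tumour libraries thus lay far above every spleen for both. Srgn, the proteoglycan that packs granules, rose from 818–1032 to 2638–2897 CPM. B2m and H2-D1, the chains of MHC class I, gained more CPM than most but little in fold, at 0.74 and 0.52. B2m lost its call against spleen replicates 1 and 2 alone, and H2-D1 against replicates 3 and 4 alone. Junb, Nfkbia and Nr4a1 complete the set and belong to lists below.

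Gene lists were then described by the number of members called and their median log2 fold change, with no test of a list. The plot of members called shows all 42 lists beside the background shares.

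**Figure D3:**
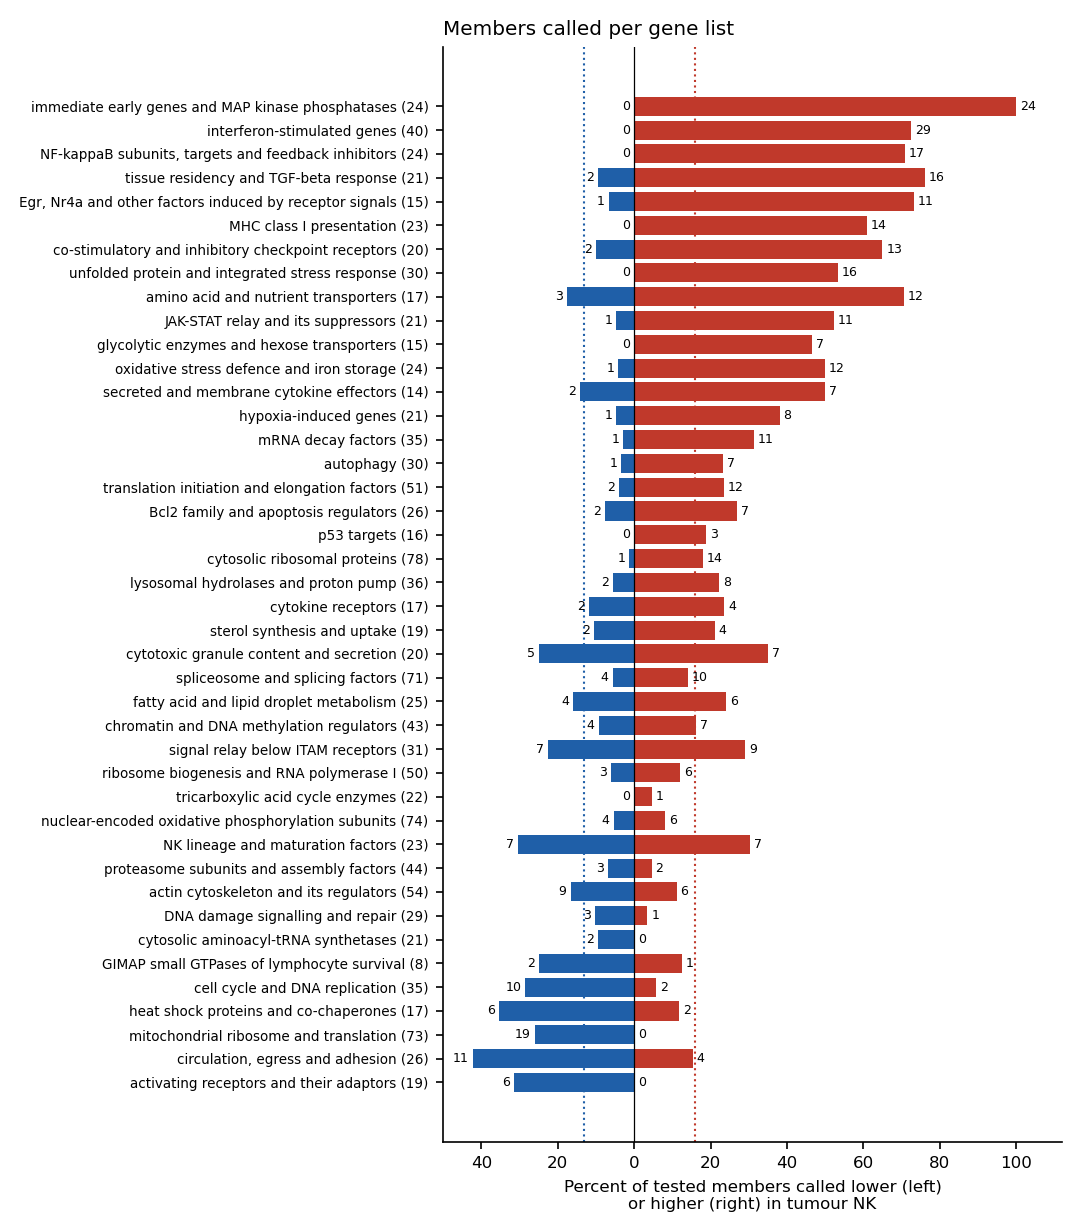
Bars give, for each gene list, the percent of tested members called higher (red, to the right) or lower (blue, to the left) in tumour NK, with the number of members called at the bar ends and the number tested in brackets. Dotted lines mark the shares over all genes, 15.8% higher and 13.2% lower. Immediate early genes reach 100% higher, and activating receptors and mitochondrial translation have no member called higher.

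Receptors that start NK activation were lower or not called. Of 19 activating receptors and adaptors tested, 6 were called lower and none higher (31.6% lower, median −0.25), and 3 of the 6 held against each spleen pair. The list's median moved to −0.35 under upper-quartile scaling, with 9 members lower. Klrb1a, described above, led them. Cd48, a ligand and coreceptor of the SLAM family, was at 295 ± 28.6 against 539 ± 69.6 CPM, and Ncr1 at 836 ± 89.7 against 1351 ± 318 CPM. Cd247, the zeta chain that carries tyrosine motifs, had 245, 261, 297 and 229 CPM in tumour replicates 1 to 4 and 310.0, 337, 423 and 421 CPM in spleen replicates 1 to 4 (log2 fold change −0.53, SE 0.149, adjusted p 0.0113). In contrast to these, the adaptors Tyrobp and Hcst were at 3495 ± 553 against 3817 ± 397 CPM and 1079 ± 187 against 1156 ± 166 CPM and Klrk1, the NKG2D receptor, at 385 ± 37.0 against 409 ± 109 CPM, none of them called. Cd247 lost its call against spleen replicates 1 and 2 alone, and Ncr1 against replicates 3 and 4 alone.

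The co-stimulatory and checkpoint list went the other way. Of 20 tested members, 13 were called higher and 2 lower (65% higher, median 1.41), and 10 of the higher ones held against each spleen pair. Tnfrsf9, the co-stimulatory receptor 4-1BB, had 276, 358, 245 and 339 CPM in tumour replicates 1 to 4 and 78.8, 105, 108 and 119 CPM in spleen replicates 1 to 4 (log2 fold change 1.56, SE 0.152, adjusted p 1.88e-07). Tnfrsf18, the receptor GITR, rose from 212–286 to 465–509.6 CPM, and Cd96, a nectin-like ligand receptor, from 78.4–96.3 to 115–153 CPM, a call lost against spleen replicates 1 and 2 alone. Lilrb4a, an inhibitory receptor, and Lilr4b are near-identical copies whose reads may be split. Lilrb4a had 439, 464, 353 and 437 CPM in tumour replicates 1 to 4 and at most 40.9 CPM in a spleen. Lilr4b had 461, 437, 374 and 436 CPM in tumour replicates 1 to 4 and at most 44.0 CPM in a spleen. Nt5e, the ectoenzyme CD73 that makes adenosine, rose from 5.63–19.7 to 49.0–91.7 CPM.

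Some checkpoint genes rested on few counts or were not called. Ctla4 had 115, 80.8, 65.2 and 153 CPM in tumour replicates 1 to 4 and 5.31, 2.22, 0 and 0.719 CPM in spleen replicates 1 to 4, and Pdcd1 11.4, 13.0, 11.4 and 30.3 CPM in tumour replicates 1 to 4 and 0.758, 1.11, 0 and 0 CPM in spleen replicates 1 to 4, and their spleen means were close to or below the limit of a count of 0, so no fold is given. Lag3 was at 25.3 ± 20.0 against 27.3 ± 16.8 CPM, Klrc1, the NKG2A receptor for MHC class I, at 267 ± 86.8 against 218 ± 72.2 CPM, and Cd27 at 219 ± 39.98 against 231 ± 33.6 CPM, none of them called. Klrg1 was the main gene that fell in the list, and Tnfrsf4 fell at low levels, from 10.6–23.7 to 4.33–7.77 CPM, though not by the test against spleen replicates 1 and 2 alone.

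**Figure D4:**
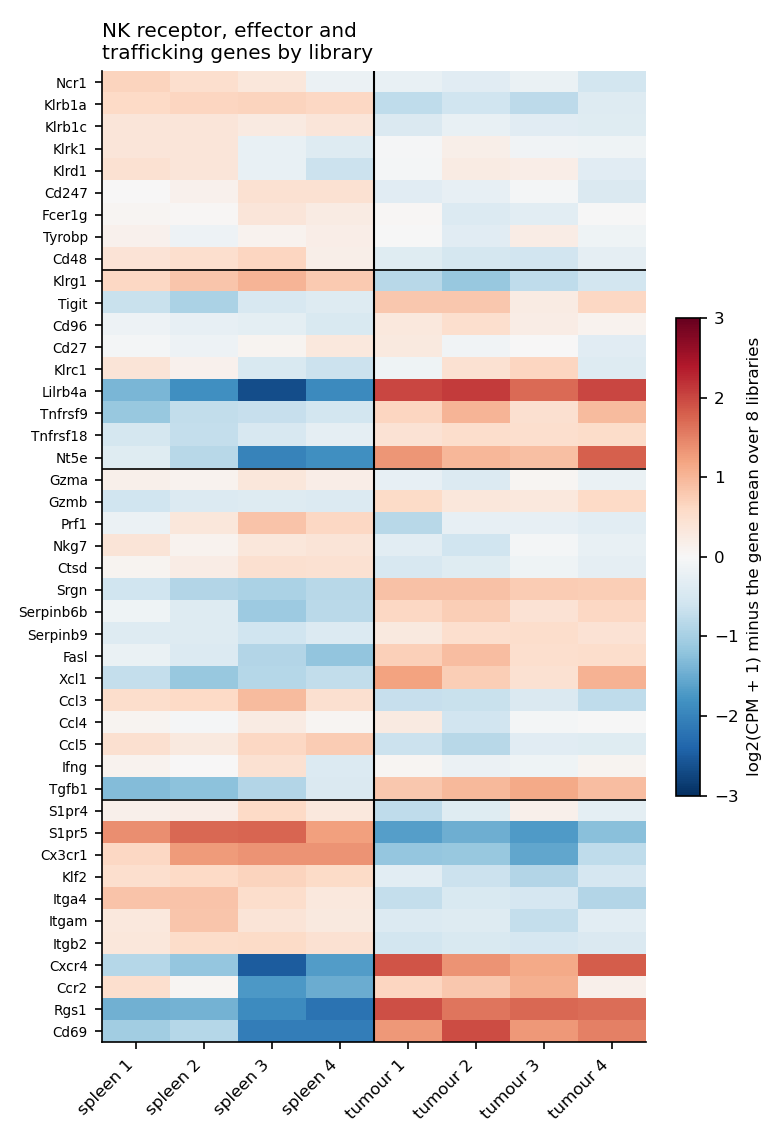
Rows are NK genes in 4 blocks (activating receptors, checkpoint and co-stimulatory receptors, effectors, trafficking) and columns the 8 libraries. Colour gives log2(CPM + 1) minus the gene's mean over the 8 libraries, red above and blue below it. Klrg1, Klrb1a, S1pr5 and Cx3cr1 are red in all 4 spleens and blue in all 4 tumours, Lilrb4a, Rgs1 and Cxcr4 the reverse, and Ccr2 is lower in spleens 3 and 4 than in the other 6 libraries.

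The kinases and adaptors just below these receptors had members on both sides. Of 31 tested, 9 were called higher and 7 lower (29.0% and 22.6%, median −0.02). Txk, a kinase of the Tec family, was at 477 ± 34.5 against 283 ± 51.9 CPM, and Ptpn22, a phosphatase that dampens Src-family kinases, at 659.7 ± 63.9 against 236 ± 75.8 CPM. Sh2d2a, an adaptor that binds Lck, rose from 112.2–117 to 223–304 CPM. On the lower side, Syk was at 83.8 ± 14.5 against 149.9 ± 21.8 CPM, Dgkz, which removes diacylglycerol, at 161 ± 37.1 against 284 ± 33.2 CPM, and Csk, the kinase that holds Src-family kinases inactive, at 286 ± 50.4 against 431 ± 47.8 CPM. Of the 9 higher calls 7 and of the 7 lower calls 2 held against each spleen pair, and Csk lost its call against replicates 1 and 2 alone.

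Transcription factors induced by receptor signals were largely higher. Of 15 tested, 11 were called higher and 1 lower (73.3% higher, median 1.18), and 10 of them held against each spleen pair. Nr4a1, an orphan nuclear receptor induced by antigen-receptor-like signals, had 2227, 2429.8, 1753 and 1940.0 CPM in tumour replicates 1 to 4 and 274, 319, 411 and 147 CPM in spleen replicates 1 to 4 (log2 fold change 2.85, SE 0.275, adjusted p 3.43e-06). Nr4a3 rose from 39.4–71.2 to 799–1005 CPM, Nr4a2 from 12.2–68.2 to 417–642 CPM and Bhlhe40, a repressor of the clock family, from 128–202 to 744–1024 CPM. Irf8, needed for NK responses to viruses, was counted at 1695–2379 CPM against 773–940.2 CPM. The early growth response genes did not move together: Egr1 rose (log2 fold change 1.18), and Egr3 fell by 1.37 on the log2 scale at 7.17–13.0 against 10.2–37.7 CPM, a call lost without spleen replicate 2 and against replicates 3 and 4 alone.

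All 24 tested immediate early genes were called higher (median 1.91), 21 of them against each spleen pair and 23 without tumour replicate 3. The list holds AP-1 subunits, their induced phosphatases and growth arrest genes. Junb had 3574, 2841, 2329 and 3124 CPM in tumour replicates 1 to 4 and 462, 471, 775 and 369 CPM in spleen replicates 1 to 4 (log2 fold change 2.51, SE 0.216, adjusted p 7.47e-08). Gadd45b, a stress sensor of the p38 pathway, had 949, 1053, 749 and 813 CPM in tumour replicates 1 to 4 and 64.4, 59.9, 73.7 and 46.7 CPM in spleen replicates 1 to 4 (log2 fold change 3.85, SE 0.166, adjusted p 4.53e-12), and Fosl2, a late AP-1 subunit, 561, 579.7, 526 and 456 CPM in tumour replicates 1 to 4 and 46.2, 46.1, 14.3 and 8.63 CPM in spleen replicates 1 to 4 (log2 fold change 4.20, SE 0.576, adjusted p 0.000643). Spleen replicate 3 was the highest of the spleens for Junb, and replicates 3 and 4 were the lowest for Fosl2. Dusp2, a phosphatase of MAP kinases that was well counted in every library, rose only from 1354–1639 to 2259–3004 CPM. These genes can change within minutes of handling, and tissue and digestion cannot be told apart here.

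Heat shock genes went both ways, with more members called lower than higher. Tissue and digestion cannot be told apart for these genes either. Of 17 tested, 2 were called higher and 6 lower (35.3% lower, median −0.33). Hspa1a and Hspa1b, inducible copies whose reads may be split, lay at 25.5–46.5 and 41.9–51.9 CPM in tumours and 0–3.79 and 0.512–12.8 CPM in spleens. Hsph1, a nucleotide exchange factor, had 83.1, 69.2, 109 and 108 CPM in tumour replicates 1 to 4 and 183, 276, 180.1 and 216 CPM in spleen replicates 1 to 4 (log2 fold change −1.19, SE 0.17, adjusted p 2.24e-05). Stip1 and Fkbp4, co-chaperones of Hsp90, were at 169 ± 13.8 against 326 ± 26.3 CPM and 111 ± 12.9 against 206 ± 13.3 CPM. Of the 6 lower members, 4 held against each spleen pair.

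The NF-kappaB list, with subunits, targets and feedback inhibitors, had 17 of 24 tested members called higher and none lower (70.8%, median 1.16). Of these, 16 held against each spleen pair, and all 17 were called without tumour replicate 3. Tnfaip3, the deubiquitinase A20 that ends the signal, had 1565, 1482, 1134 and 1161 CPM in tumour replicates 1 to 4 and 168, 177, 71.1 and 46.7 CPM in spleen replicates 1 to 4 (log2 fold change 3.53, SE 0.574, adjusted p 0.00179). Its spleen levels followed the split, with replicates 1 and 2 above replicates 3 and 4. Nfkbiz, a nuclear cofactor, rose from 12.9–61.1 to 261–486 CPM. Among the DNA-binding subunits, Nfkb2 was at 405 ± 91.8 against 121 ± 31.1 CPM, Relb at 138 ± 19.2 against 58.6 ± 16.4 CPM, and Rela and Nfkb1 had log2 fold changes of 0.46 and 0.43, of which that of Nfkb1 went to −0.0027 with the GC and length offset. Nfkb1 also lost its call against spleen replicates 3 and 4 alone, under upper-quartile scaling and without tumour replicate 1 or spleen replicate 1 or 2. The apoptosis inhibitors Birc3 and Birc2, which ubiquitinate the receptor complex, had 189.9, 208, 159 and 170.2 and 136, 118, 102 and 92.7 CPM in tumours and 51.5, 39.96, 32.2 and 48.9 and 44.7, 51.1, 41.5 and 43.9 CPM in spleens. Traf1, Traf3, Tnip1, Ikbkb, Ikbke, Cflar and Cyld were not called.

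The start regions of 2 of these inhibitors show where NF-kappaB letters sit beside 2 of the best separated genes. The windows are 250 bases before the RefSeq gene start, on GRCm38.p6, read 5′ to 3′ on the gene's strand, and capitals mark matches to the NF-kappaB consensus on either strand.
Nfkbia: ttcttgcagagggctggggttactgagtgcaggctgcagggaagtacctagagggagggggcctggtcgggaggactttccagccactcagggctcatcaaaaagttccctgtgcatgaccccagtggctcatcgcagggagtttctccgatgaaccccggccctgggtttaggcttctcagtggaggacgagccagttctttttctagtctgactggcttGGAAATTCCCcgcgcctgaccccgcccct
Nfkbid: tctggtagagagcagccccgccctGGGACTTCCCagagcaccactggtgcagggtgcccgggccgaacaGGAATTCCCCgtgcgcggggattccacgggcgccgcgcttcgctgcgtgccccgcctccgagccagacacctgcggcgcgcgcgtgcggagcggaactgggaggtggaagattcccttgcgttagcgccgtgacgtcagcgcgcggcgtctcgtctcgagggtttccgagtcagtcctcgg
The Nfkbia window is chr12:55492648-55492897 on the minus strand, and its match ends 20 bases before the start. The Nfkbid window is chr7:30422156-30422405 on the plus strand, with matches that end 217 and 172 bases before the start. Of 3 windows for that gene, the one with the most matches is shown, the first by position if tied. Of the list's 24 tested members 19 had a window, and 10 of these (52.6%) held a match, against 10.6% of 6875 tested genes with a window. Among the 136 mid-size higher genes the share was 17 of 113 (15.0%). A match is a stretch of letters and not a measured binding site.

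Interferon-stimulated genes were higher across sensors, effectors and factors. Of 40 tested, 29 were called higher and none lower (72.5%, median 1.06), 22 of them against each spleen pair and 27 without tumour replicate 3. Isg15, a ubiquitin-like modifier, had 205, 241, 193 and 165 CPM in tumour replicates 1 to 4 and 50.02, 31.1, 37.9 and 47.5 CPM in spleen replicates 1 to 4 (log2 fold change 2.28, SE 0.193, adjusted p 3.54e-08). Irf7, the factor that amplifies the response, had 465, 601, 720.5 and 458 CPM in tumour replicates 1 to 4 and 146, 178, 206 and 229 CPM in spleen replicates 1 to 4 (log2 fold change 1.57, SE 0.169, adjusted p 7.05e-07). Gbp3, a guanylate-binding protein, rose from 34.5–73.5 to 128–205 CPM, Zbp1, a nucleic acid sensor, from 118–158 to 235–335 CPM and Bst2, tetherin, from 26.1–66.2 to 82.2–151 CPM. Among factors that carry the interferon signal, log2 fold changes were 0.45 for Stat2 and 0.40 for Irf9. Stat2 and Irf9 lost their calls against spleen replicates 1 and 2 alone, under upper-quartile scaling and without spleen replicate 3 or 4 or tumour replicate 1 or 4, Irf9 also without spleen replicate 2 or tumour replicate 2, with no filter, in the 8 libraries alone and by DESeq2. Gbp3 lost its call against spleen replicates 1 and 2 alone. Ifit1, Ifit3 and Rsad2 were at most 36.1, 27.4 and 34.6 CPM in any tumour library, so these 3 rest on modest counts.

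Isg15 and Bst2 carry the interferon-stimulated response element close to the start. Capitals mark every overlapping match to its core, GAAA written 2 times with any 2 bases between, on either strand, in windows of the same kind.
Isg15: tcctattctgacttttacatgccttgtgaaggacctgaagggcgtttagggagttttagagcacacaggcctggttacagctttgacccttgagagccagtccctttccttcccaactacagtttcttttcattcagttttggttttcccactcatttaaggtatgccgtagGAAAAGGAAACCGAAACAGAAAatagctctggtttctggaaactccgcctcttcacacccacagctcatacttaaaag
Bst2: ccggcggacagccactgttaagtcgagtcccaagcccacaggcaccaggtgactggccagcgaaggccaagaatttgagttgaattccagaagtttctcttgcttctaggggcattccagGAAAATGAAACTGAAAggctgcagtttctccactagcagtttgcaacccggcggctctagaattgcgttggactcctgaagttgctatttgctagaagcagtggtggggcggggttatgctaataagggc
The Isg15 window is chr4:156200819-156201068 and the Bst2 window chr8:71537473-71537722, both on the minus strand, and their runs of matches end 57 and 115 bases before the start. The core stood in 15 of the 31 list members with a window (48.4%) and in 3.53% of the 6875 genes. In the NF-kappaB list it stood in 0 of 19, and the AP-1 letters TGANTCA stood in 1 of 23 immediate early windows (4.35%) against 4.95% of all. The letters TGACGTCA of another motif, CRE, stood in 4 of these 23 windows (17.4%) against 3.33% of all. The hypoxia response core ACGTG stood in 11 of the 23 (47.8%) and in 10 of 17 hypoxia windows (58.8%), against 26.4% of all. Motifs were not confined to their own lists. AP-1 letters stood in 19.4% of interferon and 15.8% of NF-kappaB windows. The NF-kappaB consensus stood in 22.6% of interferon, 21.7% of immediate early and 23.5% of hypoxia windows, but in 8.33% of residency and 6.25% of egress windows, against 10.6% of all.

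Antigen presentation by MHC class I was higher by small factors. Of 23 tested members, 14 were called higher and none lower (60.9%, median 0.50), but only 4 held against each spleen pair, and 11 were called without tumour replicate 3. H2-Q4 and H2-Q6, class Ib chains with close paralogues whose reads are uncertain, were at 67.3 ± 15.6 against 28.8 ± 2.35 CPM and 544 ± 131 against 279.8 ± 97.0 CPM. Tap1, the peptide transporter, rose from 169.8–208 to 249–312 CPM, and Nlrc5, the activator of class I genes, from 51.1–65.9 to 86.0–138 CPM. Summed over the list, tumour libraries held 28592 to 29874 CPM and spleens 19257 to 20529.9 CPM. MHC class II genes were higher too. H2-Aa had 126, 86.5, 126 and 130.5 CPM in tumour replicates 1 to 4 and 48.5, 22.2, 30.2 and 21.6 CPM in spleen replicates 1 to 4 (log2 fold change 1.96, SE 0.235, adjusted p 5.09e-06), and H2-Ab1, H2-Eb1 and Cd74 rose by 1.51, 1.93 and 1.33 on the log2 scale. Of 6 tested dendritic cell markers these 4 and Zbtb46 were called higher and Itgax lower, and the list's share ranged from 0.0476 to 0.0636% in tumours and 0.0355 to 0.0454% in spleens. The part of dendritic cells was not tested.

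Of 17 cytokine receptors tested, 4 were called higher, 2 lower (23.5% and 11.8%) and 11 neither, and 3 and 1 held against each spleen pair. Ifngr1, the interferon-gamma receptor, had 845, 650.4, 584 and 794 CPM in tumour replicates 1 to 4 and 327, 271, 252 and 296 CPM in spleen replicates 1 to 4 (log2 fold change 1.33, SE 0.154, adjusted p 1.88e-06), and Il10ra, the interleukin-10 receptor, was at 122 ± 17.5 against 254 ± 19.1 CPM. Il2ra, the high-affinity interleukin-2 receptor chain, was at 18.5–39.7 CPM in tumours and at 0 in all 4 spleens, which makes it at least 13.6-fold higher against a floor of 3 counts per library. Il2rb, the receptor chain for interleukin-15, was at 1449 ± 244 against 1121 ± 131 CPM and was not called.

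In the JAK-STAT list 11 of 21 tested members were called higher and 1 lower (52.4% and 4.76%, median 0.68), and all 11 and the 1 held against each spleen pair. Socs3, a suppressor of cytokine receptors, had 327, 278, 258 and 291 CPM in tumour replicates 1 to 4 and 34.9, 39.96, 38.4 and 20.9 CPM in spleen replicates 1 to 4 (log2 fold change 3.09, SE 0.174, adjusted p 1.17e-10). Stat3, which carries interleukin-6 and interleukin-10 signals, had 619.5, 541, 453 and 655 CPM in tumour replicates 1 to 4 and 162, 175, 195 and 212 CPM in spleen replicates 1 to 4 (log2 fold change 1.60, SE 0.14, adjusted p 4.73e-08), and the Pim kinases, known as cytokine-induced survival kinases, followed at 1.58, 1.42 and 1.39 for Pim3, Pim1 and Pim2. Cish, the checkpoint of interleukin-15 signalling in NK cells, rose from 4.61–24.3 to 93.3–257 CPM. Tyk2 was the member that fell, from 225–302 to 119–156 CPM.

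Genes of tissue residency and the TGF-beta response were higher in 16 of 21 tested members and lower in 2 (76.2% and 9.52%, median 1.39), 14 and 1 of them against each spleen pair. Rgs1, which blunts chemokine receptors, had 1268, 1012, 1099 and 1055 CPM in tumour replicates 1 to 4 and 119.8, 123, 88.5 and 70.5 CPM in spleen replicates 1 to 4 (log2 fold change 3.46, SE 0.223, adjusted p 4.96e-09). Smad7, the inhibitor induced by TGF-beta, had 419, 542, 414 and 489.7 CPM in tumour replicates 1 to 4 and 94.0, 90.5, 47.1 and 66.2 CPM in spleen replicates 1 to 4 (log2 fold change 2.65, SE 0.191, adjusted p 6.5e-09), and Tgif1, a corepressor of Smads, rose from 15.8–35.5 to 261–370.1 CPM. Tgfbr2, the ligand-binding receptor, was at 213 ± 19.5 against 93.3 ± 21.997 CPM, and Ski and Skil, Smad corepressors, had log2 fold changes of 1.39 and 2.70. Tgfb1, the ligand itself, had 444, 499, 561 and 478 CPM in tumour replicates 1 to 4 and 102, 108, 137 and 187 CPM in spleen replicates 1 to 4 (log2 fold change 1.89, SE 0.176, adjusted p 1.13e-07). Smad3 fell by 0.38 on the log2 scale, and Tgfbr1, Smad4 and the integrin chain Itgae were not called. Smad3 and Skil lost their calls against spleen replicates 1 and 2 alone, without spleen replicate 3 and without tumour replicate 2, and Skil also without spleen replicate 4.

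Circulation, egress and adhesion genes showed the converse, with 11 of 26 tested members called lower and 4 higher (42.3% and 15.4%). Of the 11, 6 held against each spleen pair, and the list's median was −0.09, with members not called on both sides of 0. S1pr5 had 39.1, 44.7, 37.7 and 52.0 CPM in tumour replicates 1 to 4 and 329.7, 413, 420.2 and 296 CPM in spleen replicates 1 to 4 (log2 fold change −3.09, SE 0.166, adjusted p 6.47e-11). S1pr4, its relative, had 185, 245, 352 and 255 CPM in tumour replicates 1 to 4 and 347, 364, 477 and 391 CPM in spleen replicates 1 to 4, with tumour replicate 3 inside the spleen range (log2 fold change −0.60, adjusted p 0.00992). Cx3cr1, the fractalkine receptor of mature NK cells, was at 26.1 ± 6.12 against 133 ± 29.1 CPM. The beta chain Itgb2 and its partners Itgal, Itgam and Itgax fell by 0.97, 0.49, 0.94 and 0.44 on the log2 scale. S1pr4, Itgal and Itgax lost their calls against spleen replicates 1 and 2 alone, Itgal and Itgax also without tumour replicate 2, and Itgax without tumour replicate 1 or spleen replicate 3. Itgb1, in contrast, rose from 231–319.9 to 349–494 CPM.

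Other chemokine receptors described from this list were higher or not called. Cxcr4 had 417, 287, 247 and 395 CPM in tumour replicates 1 to 4 and 61.4, 49.4, 18.9 and 34.5 CPM in spleen replicates 1 to 4 (log2 fold change 3.05, SE 0.331, adjusted p 4.01e-05). Ccr2, the monocyte chemoattractant receptor, had 785, 868, 1047 and 551 CPM in tumour replicates 1 to 4 and 709, 517, 150.5 and 176 CPM in spleen replicates 1 to 4 and missed the threshold, with a log2 fold change of 1.07 and an adjusted p of 0.299. Its tumour libraries overlapped spleen replicates 1 and 2 and lay above replicates 3 and 4. Cxcr3 was at 87.9 ± 12.1 against 63.9 ± 11.2 CPM and was not called.

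Effector molecules were divided by kind. Of 20 genes of granule content and secretion, 7 were called higher and 5 lower (35% and 25%, median 0.22), of which 6 and 1 held against each spleen pair. The median was 0.10 against replicates 3 and 4 alone. Srgn, Serpinb6b and Gzmb rose, and 2 of these guard or pack the granule: Serpinb6b, an intracellular protease inhibitor, went from 312–611 to 902–1113 CPM. Serpinb9, the inhibitor of granzyme B, went from 199–232 to 368–436 CPM. Gzmb had 2285, 1939.6, 1920.4 and 2332 CPM in tumour replicates 1 to 4 and 1026, 1156, 1174 and 1167 CPM in spleen replicates 1 to 4 (log2 fold change 0.91, SE 0.148, adjusted p 0.000109). Prf1, the pore-forming perforin, had 475, 718, 709 and 679 CPM in tumour replicates 1 to 4 and 748, 1072, 1532 and 1300.3 CPM in spleen replicates 1 to 4 (log2 fold change −0.85, SE 0.19, adjusted p 0.00223), and its spleen replicate 1 lay close to 3 of the tumours. Ctsd and Nkg7 were lower as well. Gzma, the most counted granzyme here, was at 13201 ± 1811 against 17394 ± 1261 CPM and was not called (adjusted p 0.0652), though it was called lower under 6 alternatives, without tumour replicate 3 among them. Prf1 and Ctsd lost their calls against spleen replicates 1 and 2 alone.

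Secreted and membrane-bound cytokines were higher in 7 of 14 tested members and lower in 2 (50% and 14.3%, median 0.84), and all 9 held against each spleen pair. Xcl1, which attracts cross-presenting dendritic cells, had 3034, 2183, 1794 and 2681 CPM in tumour replicates 1 to 4 and 794, 593, 717 and 784 CPM in spleen replicates 1 to 4 (log2 fold change 1.75, SE 0.199, adjusted p 1.82e-06). Fasl, the death ligand, had 642, 735, 552 and 564 CPM in tumour replicates 1 to 4 and 339, 294, 213 and 169.7 CPM in spleen replicates 1 to 4 (log2 fold change 1.29, SE 0.24, adjusted p 0.00109). Tnf, Csf2 and Lta rose at low levels, to 44.8–74.99, 41.3–65.2 and 29.3–48.2 CPM. Ccl3 and Ccl5 were the 2 that fell, while Ccl4, a related chemokine, was at 1586 ± 366 against 1767 ± 147 CPM and was not called, nor was Ifng at 332 ± 30.7 against 358 ± 86.9 CPM.

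Lineage factors also divided, 7 higher and 7 lower of 23 tested (30.4% each; 6 and 3 against each spleen pair), with a median of 0.14 that turned to −0.12 with the GC and length offset and to −0.050 without tumour replicate 3. Hopx, Myb and Nfil3 rose, Hopx from 31.2–51.5 to 170.2–266 CPM and Myb from 20.0–37.1 to 79.4–102 CPM. Tcf7, a factor of less mature NK cells, had 259, 271, 274 and 236 CPM in tumour replicates 1 to 4 and 175, 139, 112.1 and 139 CPM in spleen replicates 1 to 4 (log2 fold change 0.88, SE 0.155, adjusted p 0.000225). Tbx21, the T-bet factor of terminal maturation, had 453, 365, 285 and 442 CPM in tumour replicates 1 to 4 and 536, 567, 549.6 and 522 CPM in spleen replicates 1 to 4 (log2 fold change −0.50, SE 0.143, adjusted p 0.0135). Eomes, its relative, was at 625 ± 57.5 against 448 ± 121 CPM and was not called, and Id2, required by all innate lymphocytes, fell from 1823–2460.3 to 1456–1690.4 CPM, a call lost against spleen replicates 3 and 4 alone and without tumour replicate 2.

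Genes induced by low oxygen were called higher in 8 of 21 tested members and lower in 1 (38.1% and 4.76%, median 0.40). This median depended on the spleens used, at 0.20 against replicates 1 and 2 and 0.88 against replicates 3 and 4, and 6 members held against both. Hilpda, a lipid droplet protein that inhibits triglyceride breakdown, had 440.2, 345, 332 and 454 CPM in tumour replicates 1 to 4 and 27.3, 32.2, 26.1 and 18.7 CPM in spleen replicates 1 to 4 (log2 fold change 3.90, SE 0.191, adjusted p 2.08e-11). Ddit4, an inhibitor of the mTOR pathway, rose from 70.1–164 to 223–458 CPM, and Hif1a, the oxygen-regulated factor itself, from 14.8–26.5 to 40.7–58.7 CPM. Bnip3, Bnip3l, Egln1, Kdm3a, Gbe1 and Pfkfb3 were not called. In glycolysis 7 of 15 were called higher and none lower (46.7%). Slc2a1, the main glucose transporter, had 153, 189, 145 and 129 CPM in tumour replicates 1 to 4 and 59.1, 56.1, 54.8 and 57.5 CPM in spleen replicates 1 to 4 (log2 fold change 1.43, SE 0.166, adjusted p 1.89e-06). Aldoa and Ldha were at 548 ± 59.6 against 289.7 ± 57.1 CPM and 799 ± 34.6 against 562 ± 32.2 CPM.

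Lipid genes were led by the pair that stores triglyceride, Dgat1 and Hilpda, while G0s2 and Plin2 fell. Of 25 lipid genes, 6 were called higher and 4 lower (24% and 16%), 4 and 2 of them against each spleen pair. Plin2, a lipid droplet coat, was at 19.3 ± 1.92 against 33.8 ± 4.91 CPM (its call was lost against spleen replicates 1 and 2 alone), and Cpt2, of mitochondrial fatty acid oxidation, at 6.92 ± 3.10 against 24.8 ± 2.66 CPM. Scd2, a desaturase, rose from 18.4–31.1 to 74.1–112.5 CPM. Oxidative phosphorylation had 6 of 74 subunits higher and 4 lower (8.11% and 5.41%), and the tricarboxylic acid cycle 1 of 22 higher and none lower, both under the background shares. Atp5d was at 1161 ± 206 against 757 ± 90.9 CPM, called against spleen replicates 1 and 2 alone but not against 3 and 4 alone.

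Nutrient transporters were higher in 12 of 17 tested members and lower in 3 (70.6% and 17.6%, median 0.70), though 6 and 1 held against each spleen pair. Slc3a2, the heavy chain of amino acid exchangers, had 590.2, 512, 529 and 581 CPM in tumour replicates 1 to 4 and 151, 169.8, 149 and 147 CPM in spleen replicates 1 to 4 (log2 fold change 1.84, SE 0.131, adjusted p 2.83e-09). Slc38a2, a glutamine transporter, had 664, 916, 709 and 745 CPM in tumour replicates 1 to 4 and 231, 239, 118 and 111 CPM in spleen replicates 1 to 4 (log2 fold change 2.11, SE 0.319, adjusted p 0.000502). Slc30a1, the zinc exporter, fell from 33.8–43.2 to 7.21–10.4 CPM.

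Stress programmes were higher in part. The unfolded protein and integrated stress response had 16 of 30 tested members higher and none lower (53.3%, median 0.55), 13 of them against each spleen pair. Hspa5, the chaperone of the endoplasmic reticulum, had 852, 1116, 868 and 745 CPM in tumour replicates 1 to 4 and 460.1, 401, 323 and 229 CPM in spleen replicates 1 to 4 (log2 fold change 1.34, SE 0.24, adjusted p 0.000768), and Atf4, the factor of the integrated stress response, 765, 838, 681 and 736 CPM in tumour replicates 1 to 4 and 329.7, 371, 419.7 and 308 CPM in spleen replicates 1 to 4 (log2 fold change 1.08, SE 0.133, adjusted p 4.03e-06). Cebpb rose from 20.5–25.1 to 111–178 CPM. Oxidative stress genes were higher in 12 of 24 members and lower in 1 (50% and 4.17%), 8 and 0 of them against each spleen pair. Sqstm1, an autophagy receptor that the antioxidant factor Nrf2 induces, had 924, 1204, 967 and 1009 CPM in tumour replicates 1 to 4 and 316, 263, 240.0 and 221 CPM in spleen replicates 1 to 4 (log2 fold change 1.98, SE 0.156, adjusted p 1.17e-08), and Fth1, the ferritin heavy chain, was at 2762 ± 178 against 1697 ± 76.4 CPM. Txnrd1 and Gclc, classical targets of the same factor, had log2 fold changes of 1.12 and 0.63, and Gclc lost its call against spleen replicates 1 and 2 alone, with the GC and length offset, and without tumour replicate 2 or spleen replicate 3 or 4.

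Of 16 targets of p53 tested, 3 were called higher (18.8%) and none lower, close to the background. Cdkn1a, the cell cycle inhibitor p21, was 1 of them, with 447, 579.7, 432 and 450.0 CPM in tumour replicates 1 to 4 and 23.5, 28.3, 27.6 and 25.2 CPM in spleen replicates 1 to 4 (log2 fold change 4.17, SE 0.154, adjusted p 7.45e-13). Cell cycle and replication genes were lower in 10 of 35 and higher in 2 (28.6% and 5.71%, median −0.41), of which 3 and 1 held against each spleen pair. Ccnd3, a D-type cyclin, had 477, 449.9, 622 and 582 CPM in tumour replicates 1 to 4 and 886, 962, 893 and 1021 CPM in spleen replicates 1 to 4 (log2 fold change −0.82, SE 0.137, adjusted p 0.000146), E2f2 went from 44.7–65.5 to 10.1–19.7 CPM, and Cdk6 rose from 18.9–37.9 to 56.2–87.9 CPM. The apoptosis list had 7 of 26 higher and 2 lower (26.9% and 7.69%), 6 and 1 of them against each spleen pair. Besides Bcl2l11, its leading members were Casp4, an inflammatory caspase, at 136 ± 27.1 against 45.8 ± 11.8 CPM, and Bcl2a1b, a survival factor with close copies, at 99.1 ± 36.6 against 24.3 ± 2.403 CPM.

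Factors that destabilise mRNA were higher in 11 of 35 tested members and lower in 1 (31.4% and 2.86%), 8 and 0 of them against each spleen pair. Zfp36, Zfp36l1 and Zfp36l2, proteins that bind AU-rich elements of cytokine mRNAs, were at 365 ± 73.1 against 167 ± 29.9 CPM, 466 ± 49.3 against 121 ± 70.1 CPM and 140.5 ± 23.3 against 50.8 ± 21.991 CPM. In autophagy 7 of 30 were higher and 1 lower (23.3% and 3.33%), with Gabarapl1, an LC3 relative, at 128 ± 11.2 against 41.6 ± 7.06 CPM.

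Genes of protein synthesis were counted in separate lists. Of 73 mitochondrial ribosomal and translation genes, 19 were called lower and none higher (26.0%, median −0.32), with 8 against each spleen pair. Mrpl58, Mrps12 and Mrpl38 were at 92.3 ± 8.89 against 164 ± 23.6 CPM, 36.2 ± 5.95 against 64.9 ± 9.21 CPM and 32.2 ± 3.39 against 56.1 ± 11.7 CPM. Of 78 cytosolic ribosomal proteins, 14 were called higher and 1 lower (17.9% and 1.28%, median 0.28), the higher share near the background, and 8 were called higher under upper-quartile scaling, 47 with the GC and length offset and 4 against each spleen pair. Rpl4 had 3492, 3931, 4019 and 3740.1 CPM in tumour replicates 1 to 4 and 2516, 2332, 2284 and 2137 CPM in spleen replicates 1 to 4 (log2 fold change 0.71, SE 0.133, adjusted p 0.000443). Translation factors had 12 of 51 higher and 2 lower (23.5% and 3.92%), 6 and 1 of them against each spleen pair, among them Eef2 at 2486 ± 353 against 1628 ± 270.3 CPM and Eif1 at 1547 ± 43.1 against 955 ± 103 CPM. Mrpl38 lost its call against spleen replicates 1 and 2 alone and Eef2 against replicates 3 and 4 alone.

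**Figure D5:**
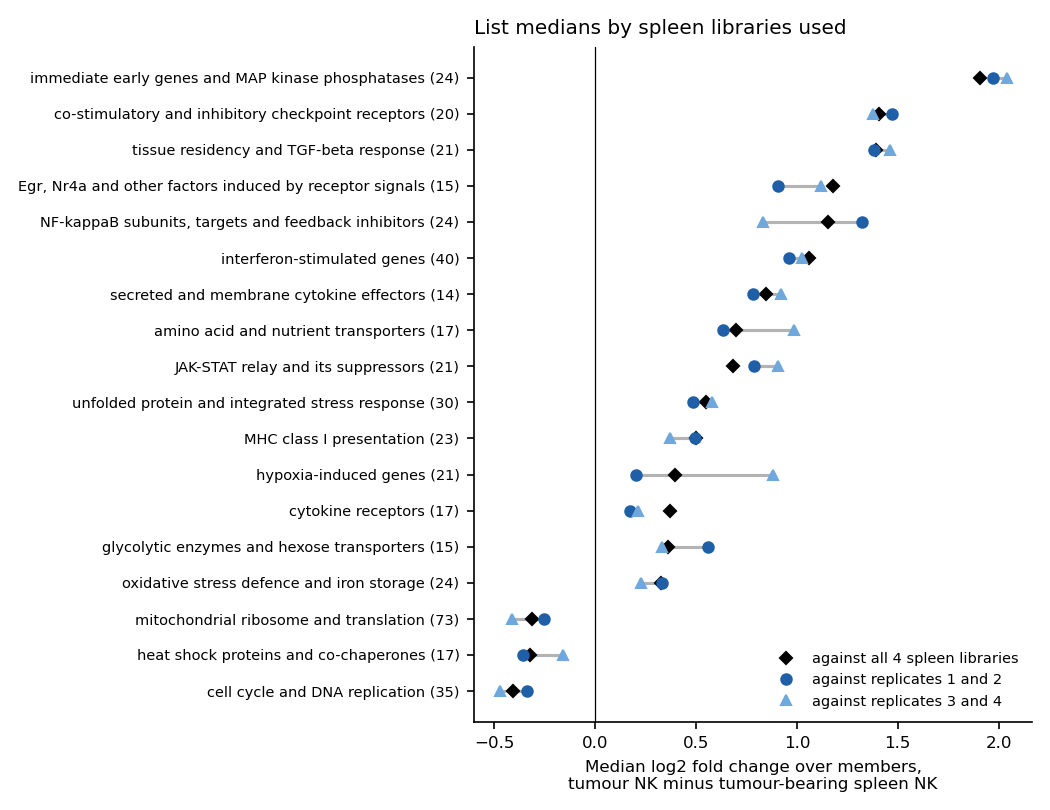
Each row is a gene list whose median log2 fold change is at least 0.3 in size, with the number of members tested in brackets. Black diamonds use all 4 spleen libraries, dark circles replicates 1 and 2 and light triangles replicates 3 and 4. Hypoxia-induced genes moved from 0.20 to 0.88 between the pairs, whereas immediate early genes lay at 1.91 to 2.04 in all 3 fits.

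Other lists had shares near or below the background. Both shares were below it for proteasome subunits (4.55% higher and 6.82% lower of 44), aminoacyl-tRNA synthetases (0% and 9.52% of 21), ribosome biogenesis (12% and 6% of 50), splicing (14.1% and 5.63% of 71) and DNA repair (3.45% and 10.3% of 29). Chromatin regulators had 16.3% higher and 9.30% lower of 43. In the lysosome list 8 of 36 were higher and 2 lower, or 5 and 7 under upper-quartile scaling, and 1 of each direction held against each spleen pair. Sterol genes had 4 of 19 higher and 2 lower. Among actin regulators 6 of 54 were higher and 9 lower (11.1% and 16.7%), but 2 were lower against replicates 1 and 2 alone and 13 against replicates 3 and 4 alone. Capg, an actin-capping protein, rose from 78.8–145 to 309–419.7 CPM, and Flna, a filamin, fell from 381–463 to 239–305 CPM. Of 8 GIMAP genes, Gimap6 rose by 0.41, and Gimap1 and Gimap7 fell by 0.89 and 0.75 on the log2 scale. Gimap7 lost its call against spleen replicates 1 and 2 alone, and Gimap6 against either spleen pair, under upper-quartile scaling and without spleen replicate 1 or 4.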

How the data were processed

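NK cells were profiled by bulk 3' RNA sequencing in 4 tumour, 4 tumour-bearing spleen and 3 healthy spleen samples. The authors deposited whole-number counts for each gene symbol, not normalized, made from polyA RNA libraries. The submitters' processing notes name bcl2fastq, STAR 2.4.2a, HTSeq and the build mm10; their settings, the annotation and any use of molecular identifiers are not given in the sources used here. The header of the deposited count table has a space in place of a tab between tumour replicates 3 and 4, and columns were read by position. The table held 10210 genes, each with at least 6 counts in some library.

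The samples were taken by their labels. The comparison, the members named and the gene lists were chosen with earlier results of these data known, and no list was tested. Genes were kept by filterByExpr (8471 left). All 11 libraries entered one robust quasi-likelihood fit (edgeR 4.0.16, R 4.3.3, limma 3.58.1) with TMM scaling and the group as its only term. The contrast was tumour minus tumour-bearing spleen NK, and calls needed a p under 0.05 after Benjamini-Hochberg adjustment across the 8471 genes. Standard errors come from the fold change and its F statistic. Shares of marker lists were compared by an exact permutation test. No 2 replicates of tumour or of tumour-bearing spleen NK cells agreed within sampling noise. On simulated counts for 8132 genes, 67 of 98 genes changed 2-fold (68.4%) and 95 of 97 changed 4-fold (97.9%) were called, with 8 of 7937 unchanged genes. The simulation changed a far smaller part of the genes than was called here and held no split of the spleens into pairs. Its rates may therefore differ from those of the real comparison.

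Named genes were list and marker genes, first called members with at least 20 CPM in the lower group (up to 3 each way by fold change), the 12 mid-size genes each way, and the 8 called genes with the largest difference in mean CPM each way. The last 2 sets leave out predicted genes (Gm, Rik, AC or BC names) and pseudogenes (-ps). Members named beyond these were added for their role in a list. Alternatives were other scaling (RLE, upper quartile), no filter or at least 10 counts in 4 libraries, DESeq2 1.42.0, the 8 libraries alone with and without a replicate block, each spleen pair alone, an offset for GC content and length (last 500 bases of GENCODE M21 transcripts, 8340 symbols matched), a 2-fold minimum, and each library left out. Promoter windows come from RefSeq (GRCm38.p6), with 6875 tested genes matched by symbol.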

Additional observations from a re-analysis of the deposited data

Results flagged for a closer look

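In 480 groups of 4 libraries (named genes and marker shares), 29 had a library whose gap to the nearest of the others took more of the group's range than Dixon's 95% critical value allows. Chance gives about 1 in 20 groups, and no cause was tested. Tumour replicate 1 was the highest of its group for Zbtb46 (22.8 CPM, next 13.2). Tumour replicate 1 was the lowest of its group for Bnip3l (106 CPM, next 132) and Prf1 (475 CPM, next 679). Tumour replicate 2 was the highest of its group for Cdkn1a (579.7 CPM, next 450.0), Cpt2 (11.54 CPM, next 5.71), Egln1 (80.8 CPM, next 63.6) and Gbp3 (205 CPM, next 134). Tumour replicate 2 was the lowest of its group for Col1a2 (2.88 CPM, next 10.8), Gimap7 (131 CPM, next 239.8) and H2-Aa (86.5 CPM, next 126). Tumour replicate 3 was the highest of its group for Apoe (105 CPM, next 13.2) and Lyz2 (40.1 CPM, next 7.21). Tumour replicate 3 was the lowest of its group for Cdh1 (26.3 CPM, next 46.1). Tumour replicate 4 was the highest of its group for Lta (48.2 CPM, next 30.3) and Pdcd1 (30.3 CPM, next 13.0). Spleen replicate 1 was the highest of its group for Gbe1 (37.9 CPM, next 25.2) and Itga1 (1.52 CPM, next 0). Spleen replicate 1 was the lowest of its group for Cx3cr1 (89.4 CPM, next 143) and Gzmb (1026 CPM, next 1156). Spleen replicate 2 was the highest of its group for Itgam (506 CPM, next 374). Spleen replicate 2 was the lowest of its group for Nfkbid (97.1 CPM, next 124). Spleen replicate 3 was the highest of its group for Smad3 (172 CPM, next 152). Spleen replicate 3 was the lowest of its group for Nfkbie (52.7 CPM, next 63.7) and Serpinb9 (199 CPM, next 227). Spleen replicate 4 was the highest of its group for Cflar (75.5 CPM, next 61.6) and Lag3 (52.5 CPM, next 20.0). The share of counts on the B cells list was highest in tumour replicate 3, at 0.00212% against a next value of 0.000532%. The share of counts on the neutrophils list was highest in tumour replicate 2, at 0.0168% against a next value of 0.00772%. The share of counts on the carcinoma or epithelial cells list was lowest in tumour replicate 3, at 0.0025% against a next value of 0.00477%.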

How the results depend on the processing

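A 2-fold minimum left 676 genes higher and 344 lower. The 2 spleen libraries numbered 1 and 2, used alone, left 546 lower genes. Leaving out 1 library at a time gave 1055 to 1258 higher and 814 to 1246 lower genes. Whether same-numbered tumour and spleen libraries share an animal is not given in the sources used here. Deviations of same-numbered libraries correlated with r = −0.035, 0.358, 0.022 and 0.259, and those of differently numbered libraries with r from −0.319 to 0.190. With 4 libraries in each group these values cannot decide on pairing. With the replicate block, 1499 genes were higher and 1321 lower, and the medians of the residency and cytokine receptor lists were 2.02 and 0.23 (2.00 and 0.24 in the 8 libraries without it).

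Of 756 comparisons of a list median with an alternative, 30 moved by at least the spread of the libraries. The sign changed in 38 comparisons of 9 lists, 7 of them with a median under 0.1 in size, the others being lineage factors and splicing. Against spleen replicates 1 and 2 alone the medians were 1.32 for NF-kappaB, 0.91 for receptor-induced factors, −0.27 for egress and 0.17 for cytokine receptors. Against replicates 3 and 4 alone they were 0.83 for NF-kappaB, 0.88 for hypoxia, 0.91 for JAK-STAT, 0.10 for granule genes, −0.16 for heat shock, 0.21 for cytokine receptors and −0.18 for actin. Under upper-quartile scaling they were 0.12 for granule genes, −0.079 for the tricarboxylic acid cycle, −0.20 for ribosome biogenesis, −0.18 for the proteasome and −0.16 for actin. The GC and length offset gave −0.058 for splicing, −0.069 for the tricarboxylic acid cycle, −0.12 for lineage factors and 0.92 for receptor-induced factors, and it turned Nfkb1 to −0.0027. With no filter they were 1.27 for secreted effectors, 0.98 for receptor-induced factors and 0.23 for cytokine receptors. With each library left out, medians ran from −0.38 to −0.12 for heat shock, 0.97 to 1.27 for NF-kappaB and −0.050 to 0.21 for lineage factors, the last of these negative without tumour replicate 3. The cause was not tested.

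Of 192 called genes named here, 158 kept direction and call under every alternative with a p-value. Of the 34 others, 26 lost the call against spleen replicates 1 and 2 alone, 9 against replicates 3 and 4 alone and 16 in at least 1 fit without a library. Of the named genes not called, 11 were called under some alternative. Depth limits genes near a count of 0, such as Pdcd1 and Itga1, which had 0 to 2 counts in each spleen library.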

Other observations

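Chosen after their values were seen, 2 abundant housekeeping genes differed widely between libraries of 1 group. Gapdh, a glycolytic enzyme, had 8.15, 14.4, 17.9 and 11.3 CPM in tumour replicates 1 to 4 and 8.34, 8.88, 504 and 7.91 CPM in spleen replicates 1 to 4. Rps2, a ribosomal protein gene, had 31.0, 28.8, 851 and 839 CPM in tumour replicates 1 to 4 and 462, 21.6, 23.5 and 10.1 CPM in spleen replicates 1 to 4. The high libraries lay in both groups for Rps2 and in 1 spleen library for Gapdh.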
